A study of Mus musculus with 6 samples.

Results

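The genes described here are 34 named genes of sterol synthesis, fatty acid synthesis and their control by SREBP and LXR transcription factors, all of them present among the 46963 gene names of the count table and among the 14600 genes that passed the filter on low counts. They were taken from a list of named pathway genes and not by a threshold on their levels. By role the list holds 7 genes of the upstream mevalonate steps, 11 of the squalene and sterol steps, 5 that control SREBP, 3 of sterol carriage and export, 2 LXR genes and 6 of fatty acid synthesis.

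RNA was sequenced from CD43- splenic B-cells of 3 genotypes of mice in a 129 background, 8 to 12 weeks old and of both sexes. The wt mice kept both enhancer regions of the immunoglobulin heavy chain locus, the Eμ-deficient mice lacked the Eμ enhancer with its matrix attachment regions, and the 3′RR-deficient mice lacked the 3′ regulatory region. CD43 is a surface protein that resting mature B-cells lack, so its depletion leaves mainly these cells. Each genotype gave 1 non-stimulated library, called resting below, and 1 library stimulated for 2 days with LPS, a bacterial lipopolysaccharide that activates B-cells, at 5 µg/ml. The labels state that cells of 2 mice were pooled, while the study's methods describe 2 RNA pools per genotype, so what the single library of each genotype and state holds is uncertain. Both deletions were carried in every cell of the animals. The labels give 2 days of culture also for the resting cells, while the study's methods describe cells taken before stimulation, so an effect of LPS and one of culture cannot be told apart.

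Cells make cholesterol from acetyl-CoA through mevalonate, isoprenoid units, squalene and lanosterol, and they make fatty acids from acetyl-CoA through malonyl-CoA. When membranes run short of sterol, SCAP carries the SREBP factors out of the endoplasmic reticulum and they are cleaved and switch on these enzymes, whereas INSIG proteins hold SCAP back when sterol is plentiful. For cholesterol, LXR factors work in the other direction: oxysterols activate them, and they drive genes that export it. Lymphocytes that start to divide are known to need both pathways for new membrane.

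The promoters of 5 genes are printed here because they stand at both ends of the LPS comparison: the 3 genes with the largest rise and the 2 with the largest fall among those with an entry in the RefSeq promoter table (GRCm38.p6, the assembly of mm10). Each run gives the 180 bases before a RefSeq start, 5′ to 3′ on the gene's strand. Capitals mark the SREBP element TCACNCCAC and the NF-Y box CCAAT, or its reverse complement ATTGG, on either strand. The GENCODE M21 genes begin inside the Idi1 and Lss windows, and the Nr1h3 window is that of 1 of 2 listed starts and lies within the annotated gene.
Idi1, chr13:8885426-8885605, + strand: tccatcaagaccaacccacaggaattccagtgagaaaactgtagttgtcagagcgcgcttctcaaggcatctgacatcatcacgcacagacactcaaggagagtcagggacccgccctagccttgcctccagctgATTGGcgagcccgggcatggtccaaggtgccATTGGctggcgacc
Hmgcs1, chr13:119690171-119690350, + strand: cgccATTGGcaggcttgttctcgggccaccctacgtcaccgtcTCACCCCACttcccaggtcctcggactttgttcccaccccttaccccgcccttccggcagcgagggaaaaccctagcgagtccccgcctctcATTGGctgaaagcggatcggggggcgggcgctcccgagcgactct
Lss, chr10:76531425-76531604, + strand: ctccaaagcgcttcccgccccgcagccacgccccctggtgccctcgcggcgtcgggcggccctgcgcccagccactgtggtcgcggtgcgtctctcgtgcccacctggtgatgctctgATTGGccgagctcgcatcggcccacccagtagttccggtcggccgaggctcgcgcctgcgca
Abca1, chr4:53159896-53160075, - strand: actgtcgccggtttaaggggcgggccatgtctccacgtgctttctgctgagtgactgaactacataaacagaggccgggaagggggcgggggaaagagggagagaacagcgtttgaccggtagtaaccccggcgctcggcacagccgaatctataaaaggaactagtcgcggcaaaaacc
Nr1h3, chr2:91195117-91195296, - strand: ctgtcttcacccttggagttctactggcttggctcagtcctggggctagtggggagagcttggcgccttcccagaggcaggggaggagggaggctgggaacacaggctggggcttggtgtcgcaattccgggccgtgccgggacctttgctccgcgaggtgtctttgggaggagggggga

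In these windows Idi1 and Hmgcs1 each held 2 NF-Y boxes, Lss held 1, and Abca1 and Nr1h3 held 0. Hmgcs1 also held the SREBP element. Over the whole table, which runs from 250 bases before to 50 after each start, 27 of the 34 genes had an entry, with 36 promoters in all. The genes without one were Sqle, Fdps, Fdft1, Stard4, Abcg1, Scd1 and Scd2. NF-Y boxes lay in a promoter of 20 of the 27 genes (74.1%), against 41.1% of the 27025 genes in the table. By role they lay in 9 of 9 genes of the squalene and sterol steps, 5 of 6 of the mevalonate steps, 4 of 5 that control SREBP, 2 of 4 of fatty acid synthesis, and 0 of 3 for Abca1 and both LXR genes. The Sp1 box GGGCGG lay in 21 of the 27 genes (77.8%), against 38.2% of all genes. The SREBP element was found in the Hmgcs1 promoter alone among the 27 genes (3.70%), against 1.44% of all genes. The LXR element, AGGTCA repeated after 4 bases, lay in 0 of the 27 genes and in 4 of all genes. Only these exact letters were searched, so an SREBP or LXR element with other letters was not counted. The 0 therefore does not show that these promoters lack LXR elements, nor does the single SREBP match show that the others lack SREBP elements. All motifs were searched on both strands and could overlap, and a match is a run of letters, not a site in use.

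Library depth and the makeup of the cells bear on every value. The 6 libraries held 9111974 to 21998587 counts on genes, and the smallest was the stimulated 3′RR-deficient library. All 8 B-cell markers were present in every library, with a summed level of 2761 to 3660 CPM (the count scaled to the size of its library) at rest and 1809 to 2147 CPM after LPS. The 5 markers of dividing cells rose in all genotypes, from a sum of 92.8 to 231 CPM to a sum of 1284 to 1348 CPM. Macrophage and monocyte markers summed to 286 to 841 CPM at rest and 86.6 to 169 CPM after LPS. Mpeg1 alone gave 54.1 to 127 CPM of the sums after LPS. Erythroid markers summed to 3376 to 20387 CPM at rest, highest in the Eμ-deficient library, and 53.2 to 672 CPM after LPS. Plasma cell markers summed to 546 to 2232 CPM at rest and 581 to 1589 CPM after LPS, highest in the Eμ-deficient library in both states. In such bulk samples fewer cells of a type and less RNA per cell cannot be told apart.

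LPS-stimulated B-cells held more RNA of nearly the whole route from acetyl-CoA to cholesterol than resting B-cells, and less RNA of the sterol exporters Abca1 and Abcg1 and of both LXR genes. Of the 34 genes, 24 were called higher and 4 lower after LPS, and 6 were not called. The background was 19.7% of the 14600 genes called higher and 21.1% called lower. The median log2 fold change was 1.48 over the 34 genes and -0.067 over all genes tested. The call is an adjusted p under 0.05 in edgeR's quasi-likelihood test with genotype as a block (Benjamini-Hochberg over all genes tested). Since each genotype and state had 1 library, the spread in this test is the departure of the 6 libraries from additive effects, on 2 residual degrees of freedom before edgeR shares information between genes, and not a spread between mice.

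The count can also be read without a test. In 25 of the 34 genes all 3 stimulated libraries were above all 3 resting libraries, and in 4 all were below, against a background of 25.0% and 27.3% of genes tested. The LPS ratio had the same sign in the 3 genotypes for 30 genes. For 28 of these the 95% counting interval of each genotype excluded 0, which covers counting error only. The share of all genes with the same sign, or with such intervals, was not counted. The stimulated wt and 3′RR-deficient libraries differed in a way that followed GC content, as described below. Without the first library 27 genes were called higher and 4 lower, and without the second 23 and 4.

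**Figure D1:**
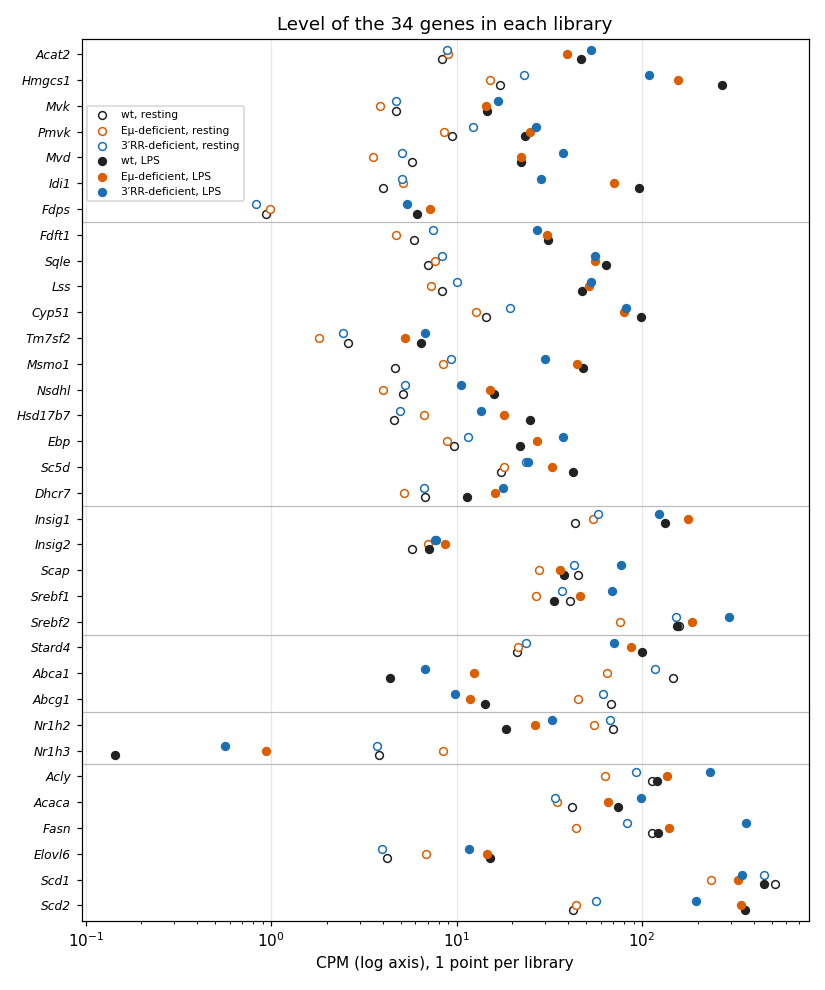
Level of each of the 34 genes in CPM on a log axis, with 1 point per library, open for resting and filled for LPS-stimulated cells and coloured by genotype; grey lines part the roles. For the 7 mevalonate genes and 11 squalene and sterol genes the filled points lie to the right of the open ones, while for Abca1, Abcg1, Nr1h2 and Nr1h3 they lie to the left.

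All 7 genes of the upstream mevalonate steps rose, with a median log2 fold change of 2.49. Idi1, whose product interconverts the isoprenoid building blocks, stood at 4.02, 5.15 and 5.05 CPM in the resting wt, Eμ-deficient and 3′RR-deficient libraries and at 95.98, 70.8 and 28.6 CPM in the stimulated ones, in the same order. Every stimulated library was above every resting one, and the stimulated level was lowest in the 3′RR-deficient library. The fitted log2 fold change was 3.62 ± 0.396 (SE), or 12.3-fold (edgeR adjusted p = 0.000242). An annotated copy, Gm13502, is identical to Idi1 over 684 bases and its own counts went from 9 to 21 at rest to 68 to 392 after LPS, so that the reads of both could not be fully parted.

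Hmgcs1, the synthase that makes HMG-CoA, went from 17.1, 15.1 and 23.04 CPM at rest to 271, 157 and 109 CPM after LPS. It too was lowest in the 3′RR-deficient library among the stimulated ones, and highest in that library among the resting ones. Its log2 fold change was 3.21 ± 0.36 (edgeR adjusted p = 0.000278). Of the 18 sterol synthesis enzymes, Hmgcs1 reached the highest mean level per length after LPS, 39.00 ± 18.1 CPM per kb of exon (SD, n = 3 libraries), against 4.01 ± 0.902 at rest.

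Mvd, which makes isopentenyl diphosphate from phosphorylated mevalonate, went from 5.78, 3.56 and 5.05 CPM to 22.3, 22.4 and 37.6 CPM. The 3′RR-deficient library held the highest of the stimulated levels, the reverse of its place for Idi1 and Hmgcs1. The log2 fold change of Mvd was 2.49 ± 0.28 (edgeR adjusted p = 0.000287). Acat2, a thiolase at the entry of the route, went from 8.31, 9.004 and 8.89 CPM to 46.8, 39.5 and 53.02 CPM, with little spread in either state. Its log2 fold change was 2.403 ± 0.24 (edgeR adjusted p = 0.000165). Acat2 resembles Acat3 at 97.7% identity over 1477 bases, and that gene had 6 to 32 counts per library. It also shares a stretch of 445 bases at 98.7% identity with Tcp1, which had 1190 to 7265.

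Fdps, the farnesyl diphosphate synthase, went from 0.935, 0.984 and 0.826 CPM to 6.12, 7.21 and 5.39 CPM. These levels rested on 13 to 17 counts at rest and 48 to 128 after LPS, and 26.7% of its exon bases are shared on the same strand with Gm43738, so its absolute level is uncertain. The log2 fold change came to 2.75 ± 0.35 (edgeR adjusted p = 0.000456). The kinases Mvk and Pmvk, which phosphorylate mevalonate and its phosphate, had smaller log2 fold changes than the other mevalonate genes. Mvk went from 4.43 ± 0.499 to 15.3 ± 1.27 CPM (SD over the 3 libraries of a state) and Pmvk from 10.1 ± 1.95 to 25.05 ± 1.700 CPM. Their log2 fold changes were 1.78 ± 0.26 and 1.32 ± 0.24.

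Of the 11 genes of the squalene and sterol steps, 10 rose and 0 fell, with a median log2 fold change of 1.77. Sqle, the squalene epoxidase, went from 7.04, 7.64 and 8.36 CPM at rest to 63.7, 55.6 and 55.6 CPM after LPS. The genotypes lay close together in both states. The fitted log2 fold change was 2.92 ± 0.24, or 7.59-fold (edgeR adjusted p = 8.33e-05). Lss, which closes the ring to lanosterol, went from 8.36, 7.26 and 10.1 CPM to 47.4, 51.5 and 52.9 CPM, again with all stimulated libraries far above the resting ones. Its log2 fold change was 2.57 ± 0.24 (edgeR adjusted p = 0.000126).

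Cyp51, the lanosterol demethylase, went from 14.4, 12.8 and 19.4 CPM to 98.4, 79.8 and 82.4 CPM. The log2 fold change was 2.497 ± 0.25 (edgeR adjusted p = 0.000167). Msmo1, which oxidises the methyl groups at carbon 4 of the sterol ring, went from 4.68, 8.47 and 9.28 CPM to 48.3, 44.9 and 30.1 CPM. At rest both mutant libraries were above wt, and after LPS the 3′RR-deficient one was below the others. The log2 fold change of Msmo1 was 2.48 ± 0.34 (edgeR adjusted p = 0.000643).

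The other sterol genes rose by smaller steps. Fdft1, the squalene synthase, went from 6.02 ± 1.402 to 29.6 ± 2.12 CPM (SD over 3 libraries), and Hsd17b7, a ketosteroid reductase of the route, from 5.41 ± 1.09 to 18.8 ± 5.62 CPM. Nsdhl, a sterol dehydrogenase, went from 4.79 ± 0.68 to 13.9 ± 2.94 CPM, and Ebp, the sterol isomerase, from 10.1 ± 1.38 to 28.8 ± 7.97 CPM. Tm7sf2, a sterol reductase, was the least abundant of the 11 per length in both states, at 0.517 ± 0.0924 and 1.396 ± 0.18 CPM per kb, and shares 12.1% of its exon bases with Vps51 on the same strand. Their log2 fold changes lay between 1.43 for Tm7sf2 and 2.31 for Fdft1.

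Both genes of the last desaturation and reduction steps were the weakest of the route. Dhcr7, the reductase that makes cholesterol from its last precursor, went from 6.77, 5.22 and 6.71 CPM to 11.4, 16.1 and 17.9 CPM, a log2 fold change of 1.26 ± 0.28 (edgeR adjusted p = 0.00741). Without the resting or the stimulated Eμ-deficient library its edgeR adjusted p was 0.0668 or 0.0664. Sc5d, the sterol C5 desaturase, went from 17.4, 17.9 and 23.7 CPM to 42.5, 32.7 and 24.2 CPM. It was higher in wt and Eμ-deficient cells after LPS, but the 3′RR-deficient pair hardly differed. Sc5d was not called (log2 fold change 0.73 ± 0.28, edgeR adjusted p = 0.0646). Without the resting or the stimulated 3′RR-deficient library it was called, at log2 fold changes of 1.06 and 1.08 (edgeR adjusted p = 0.0209 and 0.0195).

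Among the 5 genes that control SREBP, Insig1 alone was called. Insig1 holds SCAP in the endoplasmic reticulum and is itself a known SREBP target. It went from 43.5, 54.6 and 58.1 CPM at rest to 133, 177 and 123 CPM after LPS, with no overlap of the states. Its log2 fold change was 1.47 ± 0.24 (edgeR adjusted p = 0.0018). Insig2, its paralog, stood at 5.78, 7.04 and 7.63 CPM and 7.12, 8.62 and 7.75 CPM, and the states overlapped. The log2 fold change came to 0.21 ± 0.27 (edgeR adjusted p = 0.566).

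The genes of the SREBP factors and of their escort gave different values in wt and in both mutants. Srebf2, which encodes the SREBP that mainly drives sterol genes, stood at 157, 75.8 and 153 CPM at rest and at 155, 186 and 295 CPM after LPS. The wt pair hardly differed, and both mutant pairs were higher after LPS. Its log2 ratio was -0.026 (-0.099 to 0.047) in wt, 1.29 (1.18 to 1.41) in Eμ-deficient and 0.94 (0.87 to 1.02) in 3′RR-deficient cells, with 95% counting intervals. Srebf1, which encodes the SREBP that mainly drives fatty acid genes, stood at 41.1, 26.8 and 36.9 CPM and 33.7, 46.6 and 68.97 CPM. It was lower after LPS in wt and higher in both mutants, at log2 ratios of -0.29 (-0.44 to -0.14), 0.797 (0.598 to 0.998) and 0.903 (0.75 to 1.06). Scap stood at 45.4, 28.00 and 42.9 CPM and 38.00, 36.1 and 77.2 CPM, with log2 ratios of -0.26 (-0.400 to -0.12), 0.37 (0.16 to 0.58) and 0.85 (0.702 to 0.99).

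None of Srebf2, Srebf1 and Scap was called over the 6 libraries, with log2 fold changes of 0.74 ± 0.305, 0.47 ± 0.28 and 0.32 ± 0.26 (edgeR adjusted p = 0.0803, 0.208 and 0.357). Without the resting wt library these were 1.13, 0.87 and 0.63 (edgeR adjusted p = 0.00061, 0.00245 and 0.0234), and without the stimulated wt library 1.13, 0.86 and 0.62 (edgeR adjusted p = 0.0003, 0.00139 and 0.0177). Their transcripts hold 57.9 to 59.1% GC, among the highest of the list, and the ratios of these libraries moved with GC content as described below. With the GC trend of each library removed they were called at 0.91, 0.65 and 0.52 (edgeR adjusted p = 0.00802, 0.0113 and 0.0244).

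**Figure D2:**
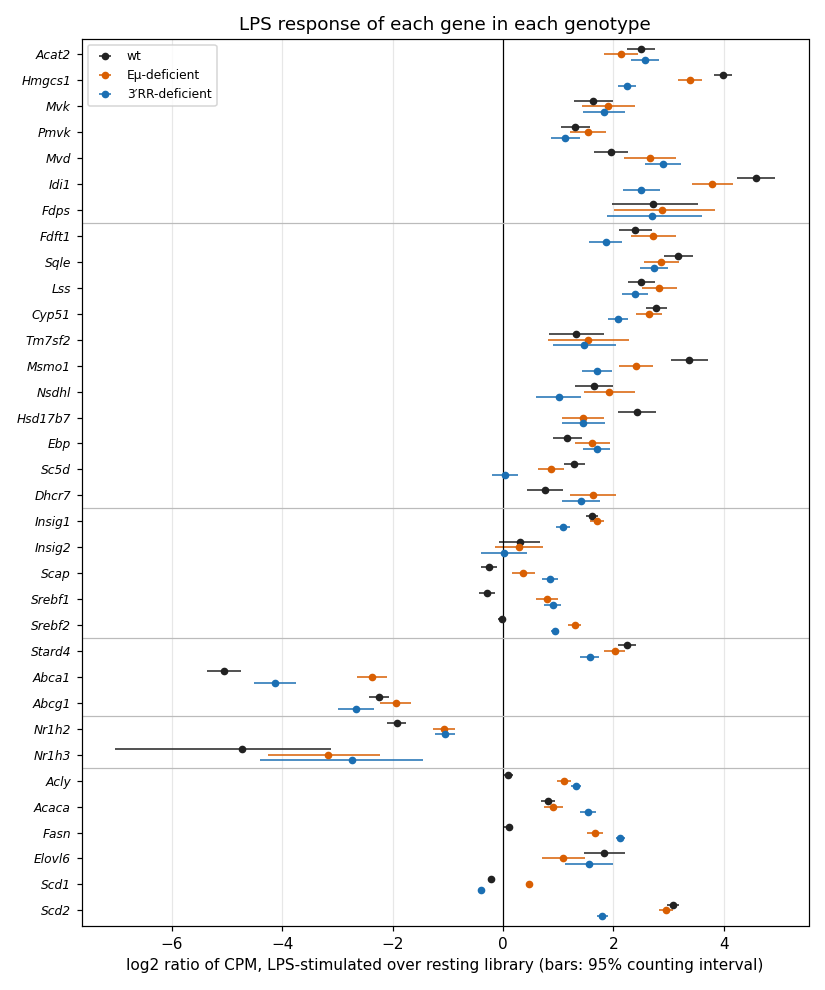
Log2 ratio of the stimulated over the resting library for each of the 34 genes in wt, Eμ-deficient and 3′RR-deficient cells, with bars for the 95% counting interval. Srebf1, Scap and Scd1 lie on both sides of 0, and the wt points of Fasn, Acly and Srebf2 lie near 0 while both mutants lie near or above 1.

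Sterol carriage and export moved in opposite directions. Stard4, which carries cholesterol between membranes, rose from 22.1 ± 1.46 to 85.9 ± 14.9 CPM (SD over 3 libraries), a log2 fold change of 1.94 ± 0.24 (edgeR adjusted p = 0.000428). Abca1, which loads cholesterol onto apolipoproteins, stood at 146, 64.6 and 118 CPM at rest and at 4.398, 12.5 and 6.74 CPM after LPS. Every stimulated library was below every resting one. The Eμ-deficient library was the lowest at rest and the highest after LPS. The log2 fold change was -3.85 ± 0.49, or 14.4-fold lower (edgeR adjusted p = 0.000459). It was -3.19 without the resting or the stimulated wt library, and -4.60 and -4.58 without the resting and the stimulated Eμ-deficient library, and stayed called in each.

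Abcg1, the transporter that passes cholesterol to lipoprotein particles, went from 67.8, 45.4 and 61.7 CPM to 14.3, 11.8 and 9.77 CPM. This gave a log2 fold change of -2.28 ± 0.25 (edgeR adjusted p = 0.000232). Both LXR genes fell as well. Nr1h2, which encodes LXRβ, went from 70.1, 55.01 and 67.6 CPM to 18.4, 26.3 and 32.7 CPM, a log2 fold change of -1.35 ± 0.26 (edgeR adjusted p = 0.00355). Nr1h3, which encodes LXRα and is known from macrophages and liver, went from 3.795, 8.399 and 3.74 CPM to 0.143, 0.937 and 0.562 CPM. These were 69 to 111 counts at rest and 3 to 10 after LPS, and the log2 ratio in wt was -4.73 (-7.04 to -3.12) with its counting interval. Its fitted log2 fold change was -3.44 ± 0.47 (edgeR adjusted p = 0.000686).

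Macrophage markers fell over the same libraries, and their part in the fall of Abca1, Abcg1, Nr1h2 and Nr1h3 was not tested. Of 12 listed markers, 10 were lower after LPS in all genotypes. Mpeg1, which gave most of the summed level after LPS, was not lower in wt, at 70.1 CPM at rest and 78.5 CPM after LPS. The complement genes C1qa, C1qb and C1qc, which mark tissue macrophages, had 181 to 785 counts in each resting library and 0 to 12 in each stimulated one. The Eμ-deficient resting library held the most macrophage marker RNA, 841 CPM against 286 in wt and 342 in 3′RR-deficient cells, and also the most Nr1h3. For Abca1, Abcg1 and Nr1h2 the same library was the lowest of the resting ones.

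**Figure D3:**
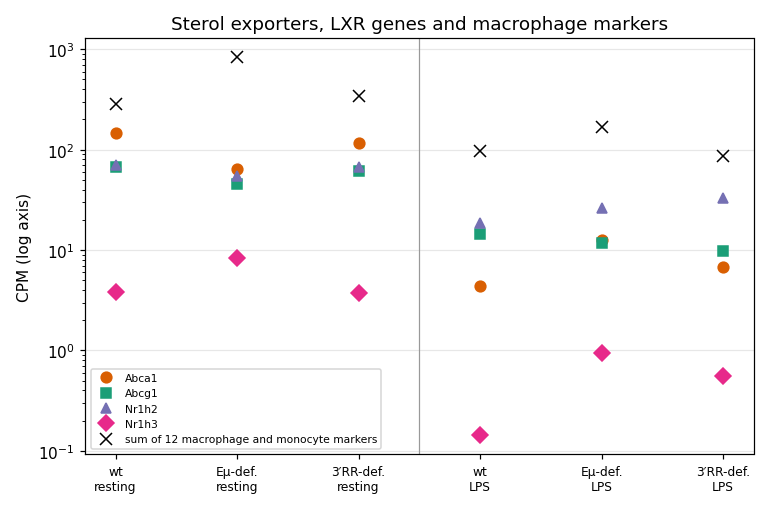
Level of Abca1, Abcg1, Nr1h2 and Nr1h3 and the summed level of the 12 macrophage and monocyte markers in each library, in CPM on a log axis, resting libraries left of the line and stimulated ones right. All 5 were lower in each stimulated library than in the resting library of its genotype, and at rest the Eμ-deficient library was highest for Nr1h3 and the markers and lowest for Abca1. Mpeg1 made up most of the summed marker level after LPS.

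Of the 6 genes of fatty acid synthesis, 5 rose and Scd1 was not called. Scd2, a stearoyl-CoA desaturase, went from 42.5, 43.9 and 56.3 CPM at rest to 360.4, 341 and 196 CPM after LPS. Its log2 fold change was 2.62 ± 0.33, or 6.14-fold (edgeR adjusted p = 0.000432). Scd1, the paralog with the same reaction, stood at 524, 236 and 456 CPM and 453, 329 and 348 CPM. It was lower after LPS in wt and 3′RR-deficient cells and higher in Eμ-deficient cells, at log2 ratios of -0.21 (-0.25 to -0.17), -0.39 (-0.45 to -0.33) and 0.48 (0.41 to 0.55). Its log2 fold change over all libraries was -0.043 ± 0.28 (edgeR adjusted p = 0.913).

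Per length Scd1 was the most abundant of the 34 genes in both states, at 82.9 ± 30.7 CPM per kb at rest and 76.98 ± 13.7 after LPS. Scd2 was at 8.705 ± 1.39 and 54.8 ± 16.4 CPM per kb. The stimulated levels of the paralogs thus lay much closer than the resting ones. Their transcripts share 623 bases at 95.5% identity.

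Acly, which makes cytosolic acetyl-CoA from citrate, went from 113, 63.3 and 92.9 CPM to 120.4, 136 and 233 CPM. Fasn, the fatty acid synthase, went from 114, 43.9 and 82.97 CPM to 122, 139 and 362 CPM. In both the wt pair was nearly level and the mutant pairs were higher after LPS, and the highest level was that of the stimulated 3′RR-deficient library. Their log2 fold changes were 0.85 ± 0.295 and 1.31 ± 0.39 (edgeR adjusted p = 0.0467 and 0.0247). Neither call held when any of the 4 mutant libraries was left out, where the edgeR adjusted p was 0.236 to 0.302 for Acly and 0.0788 to 0.128 for Fasn. Without the resting or the stimulated wt library the log2 fold change of Fasn was 1.92 or 1.91. Fasn has 57.9% GC and Acly 52.1%.

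Acaca, the carboxylase that makes malonyl-CoA, rose from 36.9 ± 4.25 to 79.2 ± 17.2 CPM, a log2 fold change of 1.09 ± 0.24 (edgeR adjusted p = 0.00708). Without the resting 3′RR-deficient library its edgeR adjusted p was 0.0579, and without both 3′RR-deficient libraries 0.0528. Elovl6, which lengthens the products of Fasn, rose from 5.01 ± 1.56 to 13.8 ± 1.83 CPM, a log2 fold change of 1.49 ± 0.28 (edgeR adjusted p = 0.00323).

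Other genes of these pathways, 72 on a list that leaves out the 34 members, gave 23 called higher and 12 called lower after LPS among the 66 that passed the filter, against the background of 19.7% and 21.1% of all genes. Of 8 genes of sterol synthesis and its prenyl branch, 5 rose and 1 fell, and of 17 tested genes of fatty acid synthesis and desaturation, 9 rose and 0 fell. Of 15 tested genes of sterol uptake, transport and storage, 2 rose and 6 fell. Of 12 genes of fatty acid activation and glycerolipids, 4 rose and 4 fell, and of 9 genes of SREBP processing and enzyme turnover, 2 rose and 0 fell. Of 5 tested oxysterol genes and LXR targets, 1 rose, Lpcat3, and 1 fell, Cyp27a1. Lpcat3 went from a mean of 10.8 CPM to 19.3 CPM, a log2 fold change of 0.83 ± 0.26. Among the largest rises were those of Fads2 and Fads1, desaturases of polyunsaturated fatty acids, Tmem97, a sterol-responsive membrane protein, and Sec24d, a coat protein of vesicles that leave the endoplasmic reticulum. Fads2 went from 0.605, 0.605 and 1.31 CPM to 9.799, 11.6 and 14.2 CPM, a log2 fold change of 3.84 ± 0.34 (edgeR adjusted p = 0.00011). The log2 fold changes of the others were 2.92 ± 0.34 for Fads1, 3.67 ± 0.27 for Tmem97 and 2.39 ± 0.26 for Sec24d.

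The largest falls on that list were those of Cyp27a1, an oxysterol-making hydroxylase, Apoe, an apolipoprotein and known LXR target, Chka, a choline kinase, Dgat1, which makes triglycerides, and Agpat2, which makes phosphatidic acid. Cyp27a1 went from 11.7, 16.04 and 11.1 CPM to 0.526, 0.843 and 1.01 CPM, a log2 fold change of -4.07 ± 0.36 (edgeR adjusted p = 0.000103). Apoe went from 94.3, 105 and 87.1 CPM to 6.98, 45.2 and 42.6 CPM, a log2 fold change of -1.93 ± 0.497 (edgeR adjusted p = 0.0134). The stimulated wt library was far below the stimulated mutant libraries for Apoe. The log2 fold changes were -1.87 ± 0.25 for Chka, -1.52 ± 0.31 for Dgat1 and -1.48 ± 0.44 for Agpat2. Both Apoe and Cyp27a1 are also known from macrophages, whose markers fell as given above.

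The 3′RR-deficient and wt libraries were then compared with culture state as a block. None of the 34 genes was called, with edgeR adjusted p of 0.914 to 0.998, against a background of 0.678% of genes called in either direction. At an unadjusted edgeR p under 0.05 there were 0 of the 34 genes as well, against 831 of the 14600 genes tested. DESeq2 called 0 of the 34 genes and 178 of all genes. The median log2 fold change was 0.093 over the 34 genes and 0.038 over all genes. The share of all genes that differed in the same direction in both states was not counted. In 9 of the 34 genes the 3′RR-deficient library differed from wt in the same direction in both states, 5 higher and 4 lower.

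The 5 largest of these were Ebp, Abcg1, Pmvk, Scd1 and Insig2. Ebp was at 11.6 CPM in 3′RR-deficient and 9.74 CPM in wt cells at rest, and at 37.5 and 21.8 CPM after LPS. Its log2 ratios were 0.25 (-0.038 to 0.54) at rest and 0.78 (0.57 to 0.99) after LPS, and the fitted value was 0.52 ± 0.29 (edgeR adjusted p = 0.914). The counting interval at rest took in 0. The fitted log2 fold changes of the others were -0.31 ± 0.29 for Abcg1, 0.29 ± 0.28 for Pmvk, -0.28 ± 0.34 for Scd1 and 0.27 ± 0.33 for Insig2 (edgeR adjusted p = 0.914, 0.918, 0.922 and 0.923). Their levels in all libraries are given above for Abcg1, Scd1 and Insig2, and Pmvk stood at 9.46, 8.55 and 12.3 CPM at rest and 23.5, 24.8 and 26.8 CPM after LPS. The counting interval of the ratio after LPS took in 0 for Pmvk (-0.035 to 0.42) and Insig2 (-0.31 to 0.54).

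Most of the 34 genes thus changed sign against wt between the states. After LPS the 3′RR-deficient library was below wt for Idi1, at a log2 ratio of -1.74 (-1.94 to -1.56), and for Hmgcs1, at -1.31 (-1.41 to -1.21). It was above wt for Fasn, at 1.57 (1.498 to 1.65), and for Srebf1, at 1.04 (0.88 to 1.19). At rest the same ratios were 0.33 (-0.11 to 0.78), 0.43 (0.22 to 0.64), -0.45 (-0.55 to -0.36) and -0.16 (-0.303 to -0.0078). The split followed the GC content of the transcripts. The 18 genes under 50% GC had a median ratio of -0.38 after LPS, with 13 of them lower than wt, and the 16 genes over 50% GC had a median of 0.77, with 13 of them higher.

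Across genes, which are not independent replicates and here share the same libraries, Spearman's rho between GC content and this ratio was 0.81 over the 34 genes and 0.56 over 14362 genes. The 35 spike-in RNAs with at least 100 counts, which were added to each sample and do not come from the cells, ranged from -3.15 to 1.62 in the same ratio, with an SD of 1.27. At rest the SD of the spike-ins was 0.157 and rho over the 34 genes was -0.49. What part of the ratios after LPS GC content accounts for was not tested gene by gene. With the GC trend removed from each library, 0 genes were called in the 3′RR comparison and the median was 0.026. Without the resting wt library, the log2 fold changes of Fasn, Scap, Srebf1, Srebf2 and Idi1 were 1.47, 0.92, 1.02, 1.02 and -1.43. These values rest on the stimulated libraries, with wt left at 1 library.

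**Figure D4:**
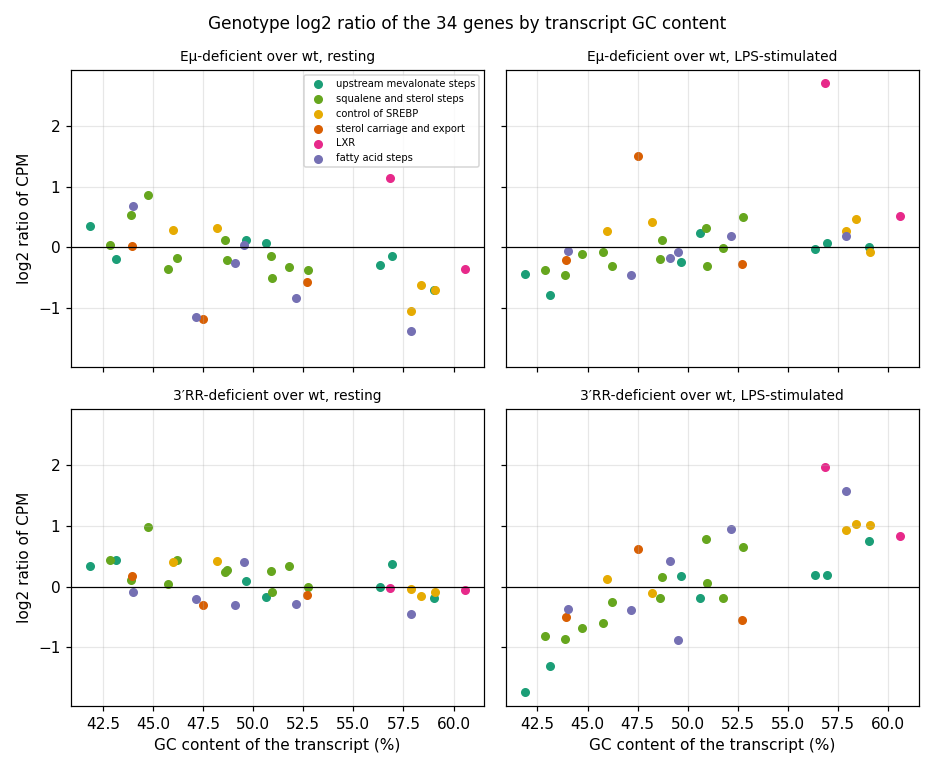
Log2 ratio of each mutant library over the wt library of the same state for the 34 genes, against the GC content of the transcript in percent, coloured by role. In stimulated 3′RR-deficient cells the ratio climbs with GC content (rho = 0.81), from -1.74 for Idi1 to 1.57 for Fasn and 1.97 for Nr1h3, and at rest it does not climb (rho = -0.49).

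The Eμ-deficient and wt libraries were compared in the same way. The study cites a lack of follicular B-cells, reported earlier in Eμ-deficient mice. Plasma cell markers summed to 2232 CPM in Eμ-deficient and 546 CPM in wt cells at rest, and to 1589 and 581 CPM after LPS. Of the B-cell markers, Cr2 stood at 731 and 394 CPM at rest and Fcer2a at 64.2 and 119 CPM. The part of cell makeup in the ratios of the 34 genes was not tested. None of the 34 genes was called, with edgeR adjusted p of 0.333 to 0.999, against a background of 1.16% of genes. At an unadjusted edgeR p under 0.05 there were 2 of the 34 genes, Nr1h3 and Scd1, against 1267 of the 14600 genes tested. DESeq2 called 0 of the 34 genes and 340 of all genes. The median log2 fold change was -0.11 over the 34 genes and -0.013 over all genes. Here too the share of all genes that differed in the same direction in both states was not counted. In 14 of the 34 genes the Eμ-deficient library differed from wt in the same direction in both states, 4 higher and 10 lower.

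Nr1h3 had the largest of these differences. It was at 8.399 CPM in Eμ-deficient and 3.795 CPM in wt cells at rest, and at 0.937 and 0.143 CPM after LPS. The log2 ratios were 1.15 (0.700 to 1.601) and 2.71 (0.75 to 5.21), the latter on 10 and 3 counts, and the fitted value was 1.53 ± 0.53 (edgeR adjusted p = 0.333). Macrophage markers summed higher in the same libraries, at 841 against 286 CPM at rest and 169 against 97.0 CPM after LPS. Of the sums after LPS, Mpeg1 alone gave 127 and 78.5 CPM. The part of macrophage RNA in the difference of Nr1h3 was not tested.

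Scd1 was lower in Eμ-deficient cells, at log2 ratios of -1.15 (-1.21 to -1.09) at rest and -0.46 (-0.52 to -0.41) after LPS. The fitted value was -0.78 ± 0.34 (edgeR adjusted p = 0.568). Hmgcs1, Abcg1 and Scap were lower as well in both states, with fitted log2 fold changes of -0.54 ± 0.403, -0.43 ± 0.29 and -0.41 ± 0.32 (edgeR adjusted p = 0.935, 0.91 and 0.956). The counting interval took in 0 for Hmgcs1 at rest (-0.45 to 0.077), and after LPS for Abcg1 (-0.59 to 0.029) and Scap (-0.25 to 0.10). Without the stimulated wt library, which leaves wt with a single library, the log2 fold changes of Acly, Fasn and Srebf2 were -0.89, -1.49 and -0.96. These values then rest on the resting libraries, where Eμ-deficient cells stood at 43.9 CPM for Fasn and wt cells at 114 CPM.

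The ratios of Eμ-deficient over wt cells moved with GC content too, with rho of -0.53 at rest and 0.58 after LPS over the 34 genes. Within wt the LPS ratio itself did so, with rho of -0.55, against -0.29 in Eμ-deficient and -0.15 in 3′RR-deficient cells. In wt the 18 genes under 50% GC had a median LPS log2 ratio of 2.33 and the 16 over 50% GC one of 0.43. In Eμ-deficient cells these medians were 1.97 and 1.53, and the spike-in ratios of that pair had an SD of 0.135 against 0.784 in wt. The difference of the LPS log2 ratio between genotypes was largest for Abca1 in Eμ-deficient cells, 2.68 above wt, and for Idi1 in 3′RR-deficient cells, with a difference of -2.08 from wt. It could not be tested, since each genotype had 1 library per state.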

How the data were processed

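Total RNA of 6 libraries (wt, Eμ-deficient and 3′RR-deficient CD43- splenic B-cells, resting or LPS-stimulated, 2 mice pooled per the labels) was sequenced in pairs of 150 nt reads. The authors aligned reads with STAR 2.4.0a to mm10 and counted them per gene with featureCounts (Subread 1.4.6-p1), per the submitters' processing notes. The deposited values are whole-number counts, not normalized, of 46963 gene names and 92 spike-ins, with 0 columns of other series. Counts lay on the sense strand: genes of the light mitochondrial strand took 1.03 to 5.35% of mitochondrial counts. GENCODE M21 gave coordinates, GC content and overlaps.

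A gene was kept where 2 or more libraries each held 10 or more counts, and the resulting 14600 genes were fitted with edgeR 4.0.16 (TMM, quasi-likelihood test, R 4.3.3) in an additive model of genotype and culture state, with Benjamini-Hochberg adjustment over all genes and a threshold of 0.05. The SE given with a log2 fold change is its absolute value divided by the square root of the quasi-likelihood F. Such an SE is unreliable where the fold change is near 0. Spike-ins stayed out of library sizes. Ratios of 2 libraries carry exact conditional binomial (Clopper-Pearson) 95% intervals, for counting error only, and fewer than 3 counts were set to 3. Levels per length divide CPM by the kb of all annotated exons. p-values rest on the departure of the pooled libraries from additive effects of genotype and state, and say nothing of the spread between mice. Named with full statistics were up to 10 called rises and 10 called falls after LPS, up to 5 genes per genotype comparison that moved the same way in both states, and up to 5 rises and 5 falls of the other pathway genes, of which 1 rise is not reported here. The members, lists and tests were chosen with earlier results of these data known. Alternatives were other scaling, filters, prior count, DESeq2 1.42.0, removal of the GC trend, no genotype block and leaving out libraries.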

Additional observations from a re-analysis of the deposited data

Results flagged for a closer look

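In the LPS comparison 3 genes had LPS log2 ratios that pointed in opposite directions in 2 genotypes, each with a 95% counting interval that excluded 0. The differences were not tested, since each genotype had 1 library per state. For Scap the ratio differed from wt by 0.62 in Eμ-deficient and by 1.11 in 3′RR-deficient cells. For Srebf1 the differences from wt were 1.09 and 1.19. For Scd1 the Eμ-deficient ratio was 0.69 above wt, and the 3′RR-deficient ratio differed from the Eμ-deficient one by -0.87. Beside these stand the transcripts' GC contents of 59.1% for Scap, 58.4% for Srebf1 and 47.1% for Scd1.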

How the results depend on the processing

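Over the 17 alternatives of the LPS comparison, 21 to 28 genes were called higher and 4 lower in each, with a median log2 fold change of 1.36 to 1.51. The median was 1.38 with scaling by the total gene count, and 1.36 to 1.497 when libraries were left out. Removal of the GC trend gave 28 genes called higher, adding Sc5d, Srebf1, Srebf2 and Scap. Single-gene calls were lost 20 times and gained 19 times, for the 8 genes Acly, Fasn, Dhcr7, Acaca, Srebf2, Sc5d, Scap and Srebf1. Scd1 ranged from -0.31 to 0.14 when libraries were left out, turning above 0 without a wt or 3′RR-deficient one, and was never called. In the 3′RR comparison the median was 0.019 with scaling by the total gene count, 0.036 without a filter on low counts, 0.026 with the GC trend removed, and -0.049 to 0.13 when a library was left out. Leaving out a library gave 0 to 4 genes called higher and 0 to 1 lower. In the Eμ comparison the median was -0.28 to -0.014 when a library was left out, with 0 to 3 genes called lower. With libraries left out Scap ranged from -0.82 to 0.032, its sign turning without the resting wt library, and Hmgcs1 from -1.06 to 0.15, turning without the stimulated one, and neither was called. The cause of these changes was not tested. Over all genes, the LPS calls were 5962 in the reported fit and 3960 to 7245 in the alternatives, the 3′RR calls 99 and 48 to 1521, and the Eμ calls 170 and 102 to 1230. The labels give no replicate numbers, so no replicate block could be made; genotype was a block in the LPS fit, and without it 22 genes were called higher and 4 lower. Depth limits Nr1h3 and Fdps, with 3 to 128 counts per library.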
